A study of Mus musculus with 6 samples.

Results

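The genes described here are 10 that mark adipose progenitors or act as factors in them: the surface proteins Pdgfra, Pdgfrb, Ly6a, Cd34, Thy1 and Cd9, and the transcription factors Ebf1, Ebf2, Zfp423 and Gata6. They were chosen by symbol, and 9 of the 10 were found among the 13283 genes of the table; Thy1 was not analysed here. RNA-seq covered 6 libraries from an immortalized line of mouse brown adipose tissue (BAT) cells that express Cas9. Of these, 3 were MICT1 KO cells, in which sgRNAs against the microprotein gene MICT1 were introduced, and 3 were control cells with a scrambled sgRNA (Scr), labelled WT. All cells were taken through adipogenic differentiation with insulin, IBMX, dexamethasone, T3, indomethacin and rosiglitazone, and on day 6 received 10 µM forskolin for 6 h, so neither group is an untreated or undifferentiated culture. The KO cells were pools made with either of 2 sgRNAs, and the labels do not give the pool behind each library. Nothing in the labels says whether the libraries of a group came from separate cultures, so the spread between them may be technical. MICT1 itself was not analysed here.

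Adipose progenitors are stromal cells that carry PDGF receptors and the surface proteins Sca-1, CD34, CD90 and CD9 in changing combinations, and they lose much of this surface pattern as they fill with lipid. EBF factors bind DNA together with PPARγ at adipocyte genes, and EBF2 is known for marking brown and beige precursors. The zinc finger protein ZFP423 is known for committing preadipocytes and for holding back the thermogenic program through EBF2, while GATA6 is a factor of brown precursors.

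The deposited value of a gene is its estimated reads divided by a size factor of the library, written below as normalized reads. The libraries held 15445813 to 17925629 estimated reads. Of 18 adipocyte markers, 17 were in the table and all 17 were lower in the MICT1 KO cells (limma-trend, adjusted p under 0.05), 16 of them at least 2-fold. Over all genes tested, 56.9% were called in either direction, and 13.7% at least 2-fold. Their summed level was 9600 to 11561 CPM (values scaled to equal library sums) in the Scr and 1135 to 1596 CPM in the MICT1 KO libraries. Cfd, the adipokine adipsin, fell from 707 ± 85.5 to 6.50 ± 5.18 normalized reads (SD, n = 3 each). Cfd passed the filter described below only because of the Scr libraries, as did some other markers of the list. Of 12 brown markers, 7 were in the table and 6 were tested, of which 3 were lower and none higher, with a summed level of 300.5 to 342 CPM in the Scr and 142 to 157 CPM in the MICT1 KO libraries. That sum came mostly from Zic1 (3586 ± 332 to 2267 ± 93.7 normalized reads) and, in the Scr libraries, Kcnk3 (1389 ± 137 to 20.9 ± 13.6). Ucp1, the uncoupling protein, was low in all libraries, at 20.8, 24.1 and 30.5 normalized reads in the Scr and 1.91, 1.05 and 9.33 in the MICT1 KO cells. It too passed only because of the Scr libraries. In such bulk samples, a difference in the number of cells of a type and one in the RNA per cell cannot be told apart.

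Progenitor markers did not move as a group. Of the 8 genes that passed the filter (at least 10 normalized reads in at least 3 libraries), 7 were called at an adjusted p under 0.05, beside 56.9% of all 12507 genes tested. Pdgfrb, Ly6a and Ebf2 rose, and Pdgfra, Cd9, Ebf1 and Gata6 fell. The median log2 fold change of the 8 was -0.042, against -0.0053 over all genes tested. A change of at least 2-fold was seen for Ly6a, Ebf2 and Gata6, or 37.5% of the 8 genes, beside 13.7% of all genes. In 6 of the 8 (75%) the 3 Scr and the 3 MICT1 KO libraries did not overlap, beside 62.0% of all genes, so the count of separated genes lay near the background of a comparison in which most genes separated.

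**Figure D1:**
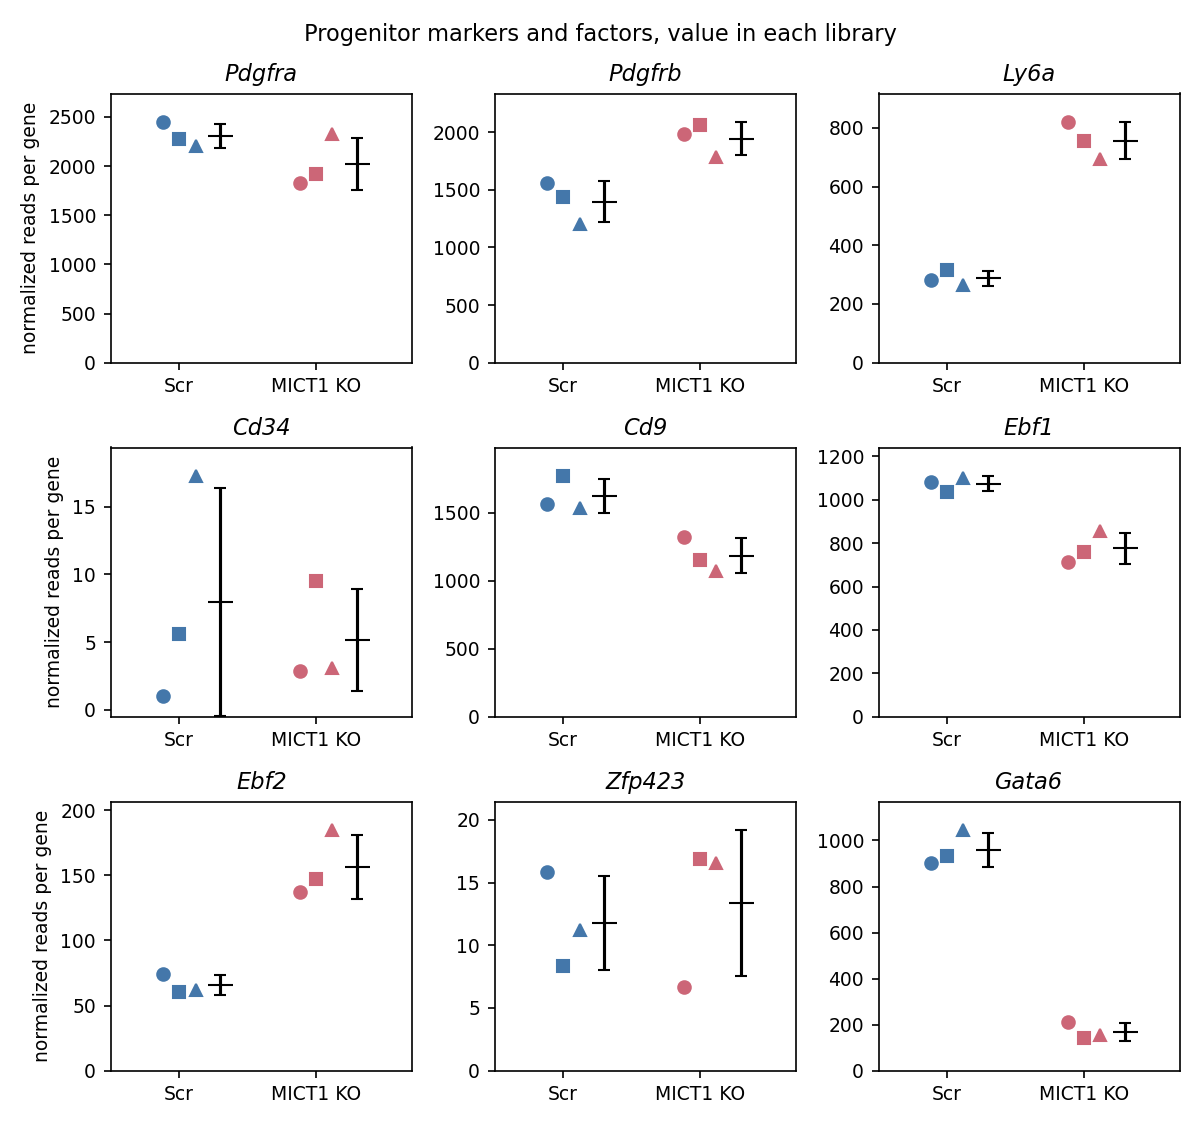
Normalized reads per gene (y axis, linear) of the 9 genes in the 3 Scr (blue) and 3 MICT1 KO (red) libraries, with replicate 1 as circles, 2 as squares and 3 as triangles, and the mean ± SD beside them. The groups are apart for Pdgfrb, Ly6a, Cd9, Ebf1, Ebf2 and Gata6 and overlap for Pdgfra, Cd34 and Zfp423; the lower bar of Cd34 in Scr passes below 0.

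Compared per length, as RPKM (reads scaled by exon length and library sum), Cd9 had the highest level in Scr libraries, at 48.5 ± 3.25 RPKM (SD, n = 3). Pdgfrb at 15.6 ± 2.14, Ly6a at 14.6 ± 1.15 and Pdgfra at 14.1 ± 0.935 RPKM followed, with overlapping libraries and no order beyond their spread. Gata6 had a level of 9.01 ± 0.676 RPKM, Ebf1 of 6.72 ± 0.292 and Ebf2 of 0.578 ± 0.0759. In MICT1 KO libraries Ly6a stood first at 38.4 ± 2.99 RPKM, not separated from Cd9 at 35.4 ± 3.64. Pdgfrb followed at 21.7 ± 1.56, Pdgfra at 12.4 ± 1.68 and Ebf1 at 4.88 ± 0.471 RPKM. Gata6 at 1.58 ± 0.348 and Ebf2 at 1.38 ± 0.227 RPKM overlapped there, while in Scr libraries Gata6 was well above Ebf2. Zfp423 and Cd34 were at the bottom in both groups, with highest library values of 0.185 and 0.145 RPKM.

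The PDGF receptors are tyrosine kinases of mesenchymal cells, PDGFRα being the usual marker of adipose progenitors and PDGFRβ that of mural cells and of part of the progenitors. Pdgfrb (GRCm38, chr18:61045150-61085061, plus strand) had 1557, 1436 and 1201 normalized reads in the Scr and 1985, 2059 and 1782 in the MICT1 KO libraries. Each MICT1 KO library was above each Scr library, and Pdgfrb was 1.39-fold higher, with a log2 fold change of 0.48 (SE 0.082, limma-trend adjusted p = 4.46e-05). Pdgfra (chr5:75152292-75198215, plus strand) had 2444, 2270 and 2206 normalized reads in the Scr and 1829, 1920 and 2326 in the MICT1 KO libraries. The third MICT1 KO library lay among the Scr libraries, so the groups overlapped. The log2 fold change of Pdgfra was -0.19 (SE 0.076, 95% interval -0.35 to -0.036, limma-trend adjusted p = 0.0347). Leaving out Scr 1, Scr 2, KO 1 or KO 2 ended this call, at -0.15, -0.21, -0.13 and -0.16, with adjusted p = 0.150, 0.0689, 0.168 and 0.117. Without KO 3 the value was -0.30. Scaling to library size also ended the call (adjusted p = 0.0506).

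The ratio of Pdgfra to Pdgfrb, both in RPKM, was 0.858, 0.864 and 1.004 in the Scr and 0.503, 0.510 and 0.713 in the MICT1 KO libraries, lower in 3 of 3. An exact two-sided permutation test of 3 against 3 cannot give p below 0.1, which this ratio reached (adjusted p = 0.129 over the 9 ratios computed). The summed level of the receptors was 29.7 ± 2.999 RPKM in the Scr and 34.1 ± 0.876 in the MICT1 KO cells (exact permutation p = 0.1, adjusted p = 0.15 over 3 sums). Of 5 other genes of the PDGF system 3 were in the table, and 2 rose and none fell, beside 56.9% of all genes called in either direction. Pdgfc, a ligand that binds PDGFRα, rose most, from 825 ± 87.5 to 2315 ± 254 normalized reads (log2 fold change 1.49, SE 0.084, adjusted p = 3.62e-12). The ligand Pdgfa passed narrowly, with 485, 511 and 481 normalized reads in the Scr and 561, 640 and 546 in the MICT1 KO libraries (0.24, adjusted p = 0.0350). It lost the call without Scr 1, Scr 3 or KO 2 (adjusted p = 0.0835, 0.0815 and 0.169). Pdgfb and Pdgfd were not analysed here.

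**Figure D2:**
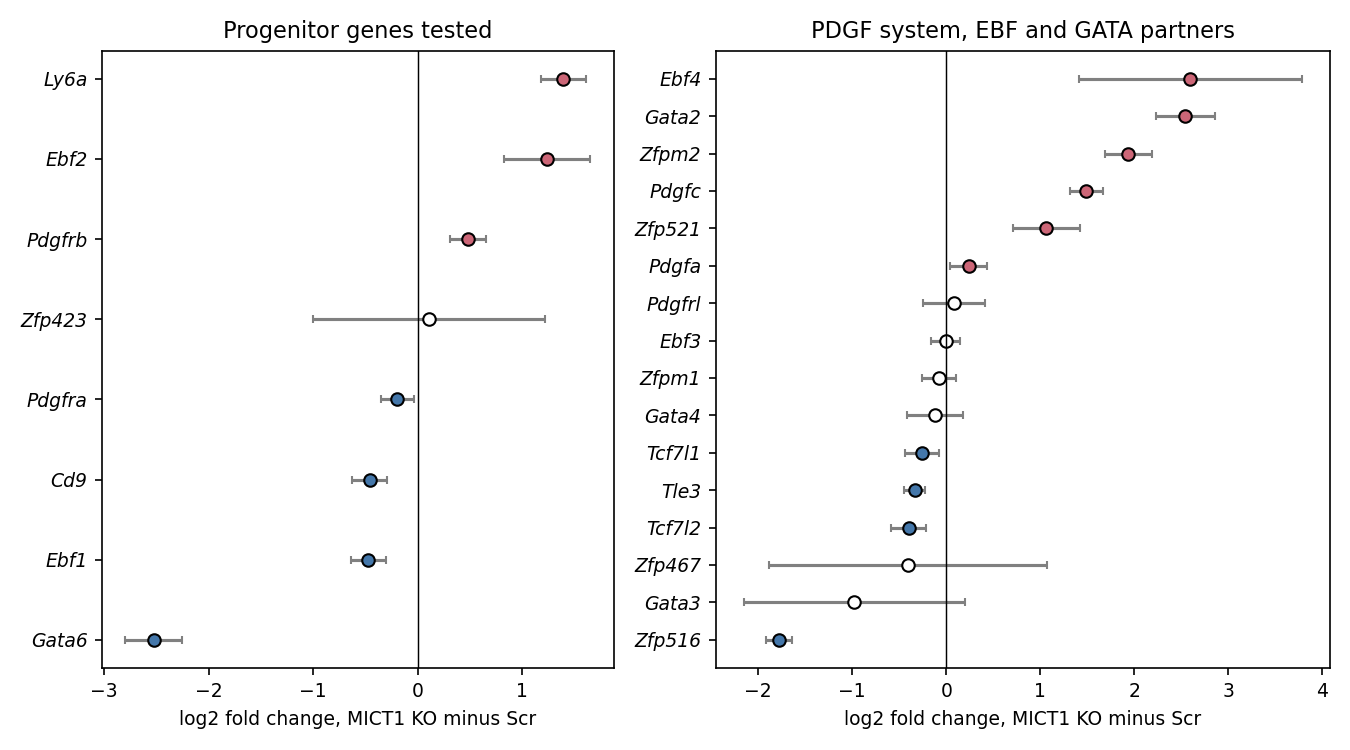
Log2 fold change of MICT1 KO against Scr cells for the 8 tested progenitor genes (left) and for PDGF, EBF and GATA relatives (right), with bars for the 95% interval of limma-trend, in red where higher, blue where lower and white where not called. Gata6 lies farthest from 0 on the left at -2.52, opposite to Gata2 at 2.54 on the right, and the interval of Zfp423 spans 0.

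Cd9 encodes a tetraspanin, a membrane protein that organizes other surface proteins and that separates more fibrogenic from more adipogenic progenitors. Cd9 (chr6:125460266-125494791, minus strand) had 1567, 1768 and 1531 normalized reads in the Scr and 1322, 1156 and 1069 in the MICT1 KO libraries. All MICT1 KO libraries were below all Scr libraries, and Cd9 was 1.37-fold lower (log2 fold change -0.46, SE 0.080, limma-trend adjusted p = 5.00e-05). Its close relative Cd81, another progenitor surface protein, was 1988 ± 154 in the Scr and 2435 ± 109 normalized reads in the MICT1 KO cells, a rise of 0.29 on the log2 scale (adjusted p = 0.000676). The ratio of Cd9 to Cd81 in RPKM was 1.15 ± 0.0686 in the Scr and 0.683 ± 0.0567 in the MICT1 KO libraries, lower in 3 of 3 (exact permutation p = 0.1, the smallest possible). Among 19 other genes tested, tetraspanins and their immunoglobulin-family partners Igsf8 and Ptgfrn, 11 were called, beside 56.9% of all genes: 7 higher, Igsf8 and Ptgfrn among them, and 4 lower, with a median log2 fold change of 0.076. The call of Igsf8 was lost without Scr 1 or KO 1 (adjusted p = 0.0566 and 0.0658). Tspan12 fell most (-0.85, adjusted p = 0.000219). Cd53, a tetraspanin of leukocytes, had 7.91, 13.9 and 5.09 normalized reads in the Scr and 42.9, 40.04 and 48.7 in the MICT1 KO libraries. It met the filter only because of the latter.

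Ly6a encodes Sca-1, a small GPI-anchored protein that is used to sort adipose progenitors and that is induced by interferon in many cell types. Ly6a (chr15:74994877-74998031, minus strand) had 282, 315 and 266 normalized reads in the Scr and 819, 755 and 692 in the MICT1 KO libraries. The lowest MICT1 KO library was above the highest Scr library by more than the range within either group, and Ly6a rose 2.62-fold (log2 fold change 1.39, SE 0.10, limma-trend adjusted p = 2.78e-10). Its neighbour in sequence is Ly6c1, which rose from 185 ± 30.7 to 456 ± 21.6 normalized reads (1.31, SE 0.13, adjusted p = 2.90e-08). The coding sequences of the pair are alike enough to matter for short reads. Their first 90 bases were chosen as the most similar stretch, since no other ungapped one of that length differs at fewer positions. They are shown 5′ to 3′ from the GENCODE transcripts, with the 4 differing positions in capitals.
Ly6a: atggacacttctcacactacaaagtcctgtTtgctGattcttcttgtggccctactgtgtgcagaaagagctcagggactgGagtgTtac
Ly6c1: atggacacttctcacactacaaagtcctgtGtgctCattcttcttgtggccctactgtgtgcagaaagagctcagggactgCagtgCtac

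Across the aligned coding bases Ly6a and Ly6c1 were identical at 303 of 396 (76.5%), with a longest identical run of 45 bases. Of the 50-base stretches of Ly6a transcripts, 19% also occurred in another gene, most often Ly6c1, and of the 100-base stretches 1.45% did. Both genes had whole reads within 0.05 in 6 of 6 libraries, so no fractional split of shared reads showed. Shared reads may still have been counted for either gene or left out, and the value of each is uncertain to that extent. The ratio of Ly6a to Ly6c1 in RPKM was 2.22 ± 0.539 in the Scr and 2.31 ± 0.147 in the MICT1 KO libraries (exact permutation p = 0.8), so no difference in their balance was detected with 3 libraries a group. Ly6e, which is less alike (57.4%), rose by 0.36 on the log2 scale (adjusted p = 0.000709). Of 13 other Ly6 family genes 7 were in the table and 6 were tested, of which 3 were higher and 1 lower. Of all genes tested, 56.9% were called in either direction. The lower one was Cd59a, a complement regulator (-1.10, adjusted p = 0.0119), a call that was lost without Scr 2 (-0.89, adjusted p = 0.0810). Among 10 interferon-induced genes 7 were higher and 1 lower, beside the same 56.9%. The list had a median of 1.26 on the log2 scale, where all genes tested had -0.0053. Rsad2, an antiviral enzyme, had 7.91, 14.8 and 8.14 normalized reads in the Scr and 138, 143 and 133 in the MICT1 KO libraries. It too met the filter only because of the latter. Whether these values have a part in the rise of Ly6a was not tested.

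Cd34 encodes a sialomucin of early adipose progenitors, endothelium and blood stem cells. It was close to absent: the libraries held 1, 6 and 17 reads in the Scr and 3, 9 and 3 in the MICT1 KO cells, or 0.989, 5.56 and 17.3 and 2.86, 9.48 and 3.11 normalized reads. The Scr values spanned the whole range of the MICT1 KO values, and Cd34 (chr1:194938819-194961279, plus strand) did not pass the filter, so no difference was detectable at this depth. The surface protein Thy1 (CD90) was not analysed here.

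Markers of other cell types were looked at because Ly6a, Cd34 and Pdgfrb also occur in endothelial, blood or mural cells. The counts of called markers below stand beside the 56.9% of all genes that were called in either direction. Of 8 endothelial markers, 1 was in the table: Cdh5, with 5.93, 12.1 and 8.14 normalized reads in the Scr and 33.4, 30.6 and 25.9 in the MICT1 KO libraries, a summed level of 0.368 to 0.725 and 1.59 to 2.03 CPM. Cdh5 met the filter only because of the MICT1 KO libraries. Of 9 immune markers, 2 were in the table and neither was called, with a summed level of 4.97 to 7.98 CPM in the Scr and 6.19 to 8.68 in the MICT1 KO cells. Of 9 mural markers, 6 were in the table and 5 were tested, of which 1 was higher and 2 lower. Their summed level was 84.6 to 98.2 CPM in the Scr and 86.4 to 88.9 in the MICT1 KO libraries, where Notch3 rose (283 ± 48.1 to 477 ± 40.8 normalized reads) and Acta2, smooth muscle actin, fell (114 ± 8.34 to 44.8 ± 7.56). Of 6 mesothelial markers, 3 were in the table, with 107 to 119 CPM in the Scr and 41.0 to 52.3 in the MICT1 KO libraries, mostly from Krt19, which was lower (-1.55, adjusted p = 1.72e-12). The other 2, Msln and Wt1, were higher (1.66 and 0.63, adjusted p = 0.00261 and 0.0278), though Wt1 lost its call without Scr 1 or KO 3 (0.49 and 0.53, adjusted p = 0.111 and 0.110). Msln had 22.7, 26.9 and 7.12 normalized reads in the Scr and 79.1, 35.8 and 57.0 in the MICT1 KO libraries. It met the filter only with the help of the latter. The other markers of these lists, among them the defining Pecam1 and Ptprc, and 6 muscle lineage markers were not analysed here. Their part in the changes of the progenitor genes was not tested.

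EBF1 and EBF2 are helix-loop-helix factors with nearly the same DNA-binding domain, and their genes moved in opposite directions. Ebf1 (chr11:44617317-45008091, plus strand) had 1083, 1035 and 1102 normalized reads in the Scr and 715, 760 and 854 in the MICT1 KO libraries. The groups did not overlap, and Ebf1 was 1.39-fold lower (log2 fold change -0.47, SE 0.080, limma-trend adjusted p = 3.68e-05). Ebf2 (chr14:67233292-67430918, plus strand) had 74.2, 60.3 and 62.1 normalized reads in the Scr and 137, 148 and 185 in the MICT1 KO libraries. Again the groups did not overlap, and Ebf2 rose 2.36-fold (1.24, SE 0.20, adjusted p = 2.03e-05). Its level stayed at or below 1.64 RPKM in every library, under the minimum of 4 RPKM the study set for its own calls. The genes share 73.8% of 1722 aligned coding bases with no identical run longer than 17, and no 50-base stretch of either occurred in another gene. The stretch of coding bases 166 to 255 of Ebf1 and 163 to 252 of Ebf2 was chosen as the most similar one. No ungapped stretch of 90 bases of the pair differs at fewer positions. It is printed 5′ to 3′ from the GENCODE transcripts, with the 12 differences in capitals.
Ebf1: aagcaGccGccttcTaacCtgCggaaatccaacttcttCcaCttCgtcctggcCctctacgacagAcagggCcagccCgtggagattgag
Ebf2: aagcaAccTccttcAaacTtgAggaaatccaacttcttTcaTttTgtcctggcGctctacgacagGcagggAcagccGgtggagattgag

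The ratio of Ebf1 to Ebf2 in RPKM was 10.4, 12.2 and 12.6 in the Scr and 3.70, 3.66 and 3.29 in the MICT1 KO libraries, lower in 3 of 3 (exact permutation p = 0.1, the smallest possible, adjusted p = 0.129 over 9 ratios). Ebf3 was the most abundant EBF gene in both groups, with 1570, 1462 and 1589 normalized reads in the Scr and 1470, 1712 and 1431 in the MICT1 KO libraries. It was not called (log2 fold change -0.0059, SE 0.073, adjusted p = 0.951). Ebf4 had 5, 2 and 3 reads in the Scr and 28, 23 and 20 in the MICT1 KO libraries. It passed the filter through the MICT1 KO libraries alone. The summed level of the 4 EBF genes was 17.6 ± 0.948 RPKM in the Scr and 16.9 ± 1.05 in the MICT1 KO cells (exact permutation p = 0.5). Within that sum the share of Ebf1 was 38.3% ± 0.459 in the Scr and 28.8% ± 2.63 in the MICT1 KO libraries. The share of Ebf2 was 3.29% ± 0.322 and 8.18% ± 1.29 (SD, n = 3). Ebf3 made up 58.1% ± 0.266 and 60.3% ± 3.69, with overlapping libraries.

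**Figure D3:**
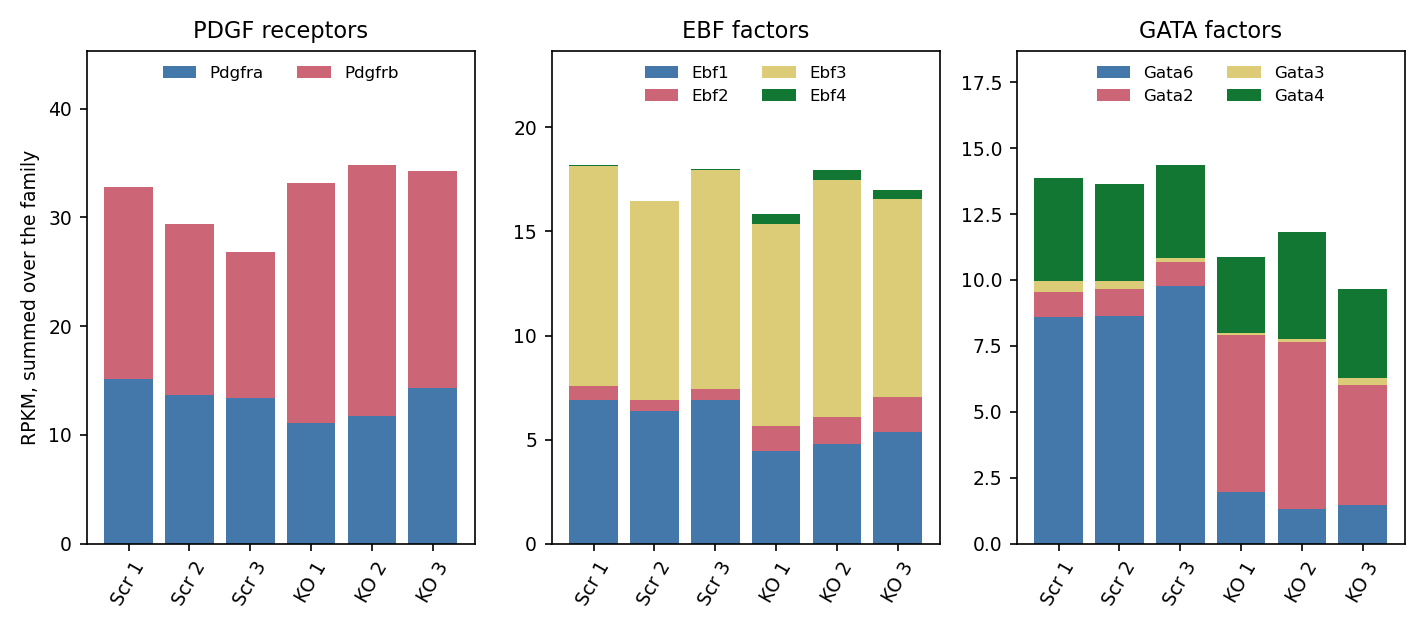
Level in RPKM (y axis), stacked over the genes of each family, in each of the 3 Scr and 3 MICT1 KO libraries (KO), with 1 bar per library. Ebf3 is the largest part of every EBF bar, and the largest part of the GATA bars is Gata6 in Scr and Gata2 in MICT1 KO libraries.

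Zfp423 (chr8:87661810-87959595, minus strand) was barely expressed, with 16, 9 and 11 reads in the Scr and 7, 16 and 16 in the MICT1 KO libraries. The groups overlapped and the change was not called, with a log2 fold change of 0.11 (SE 0.53, adjusted p = 0.875). Its 95% interval, -1.0003 to 1.22, leaves room for a 2-fold change in either direction. The related zinc finger gene Zfp521, which is known to restrain adipogenesis and to bind EBF1, had 101, 146 and 96.7 normalized reads in the Scr and 241, 220 and 250 in the MICT1 KO libraries. These groups did not overlap, and Zfp521 rose 2.09-fold (1.06, SE 0.17, adjusted p = 2.23e-05). Its highest library was at 2.19 RPKM, also under the study's minimum. Among the 8 listed EBF, zinc finger and TCF or TLE partner genes, Zfp521 included and all tested, 2 were higher and 4 lower, with a median log2 fold change of -0.30. The share called in either direction over all genes was 56.9%. Zfp516, a cold-induced factor that binds the Ucp1 promoter together with PRDM16, fell most, from 4630 ± 459 to 1343 ± 42.2 normalized reads (-1.78, SE 0.067, adjusted p = 4.31e-15).

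Gata6 had the largest change of all the genes chosen. It had 901, 934 and 1044 normalized reads in the Scr and 212, 140 and 153 in the MICT1 KO libraries. Every MICT1 KO library was far below every Scr library, and Gata6 (chr18:11052064-11085635, plus strand) was 5.75-fold lower (log2 fold change -2.52, SE 0.13, limma-trend adjusted p = 7.57e-13). Gata2, which restrains the step from preadipocyte to adipocyte, moved the other way, with 81.1, 89.9 and 78.4 normalized reads in the Scr and 526, 554 and 400 in the MICT1 KO libraries (2.54, SE 0.15, adjusted p = 8.54e-12). Gata3, with the same known role, had 28.7, 20.4 and 9.16 normalized reads in the Scr and 4.77, 7.38 and 16.6 in the MICT1 KO libraries, which overlap (adjusted p = 0.150). Gata4 was not called (-0.12, adjusted p = 0.488). Zfpm2, a cofactor of GATA factors also called FOG2, rose from 190 ± 29.0 to 724 ± 37.5 normalized reads (1.94, adjusted p = 1.31e-11), while Zfpm1 was not called.

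In RPKM, Gata6 made up 64.5% ± 3.18 of the summed level of Gata2, Gata3, Gata4 and Gata6 in the Scr and 14.8% ± 3.50 in the MICT1 KO libraries. The share of Gata2 was 6.75% ± 0.599 and 51.7% ± 3.91, so that the leading GATA gene differed between the groups. The ratio of Gata6 to Gata2 was 9.63 ± 1.27 in the Scr and 0.287 ± 0.0675 in the MICT1 KO cells, and the summed level was 14.0 ± 0.385 and 10.8 ± 1.08 RPKM (exact permutation p = 0.1 for both, adjusted p = 0.129 over the ratios and 0.15 over the sums). Gata6, Cd9, Pdgfra, Cd34 and Ebf2 each share some exon bases with a gene on the opposite strand in GENCODE. None of those genes is in the table, and the counting is not stated to use strand. The shared part was 93 of 6508 exon bases for Gata6 and 218 of 2044 for Cd9. Of the 50-base stretches of Cd9 transcripts, 5.67% also occurred in another gene, most often Gm16754, and no 100-base stretch did.

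Other markers of adipose progenitor states gave a mixed picture. Of 20 listed, 17 were in the table and 16 were tested: 11 were higher, 4 lower and 1 not called, with a median log2 fold change of 0.30. Over all genes tested, 56.9% were called in either direction and the median was -0.0053. Anxa3, a marker of progenitor subsets, had the largest rise, from 497 ± 57.2 to 3025 ± 222 normalized reads (2.61, SE 0.082, adjusted p = 2.42e-16). Dlk1, or Pref-1, which is known to hold preadipocytes undifferentiated, fell from 687 ± 35.04 to 63.9 ± 23.0 (-3.47, SE 0.19, adjusted p = 1.52e-12). Beyond these, chosen after their values were seen, Icam1 of committed preadipocytes rose from 44.6 ± 12.5 to 142 ± 39.6 normalized reads. F3 (CD142) rose from 805 ± 19.6 to 1848 ± 249 and Procr from 302 ± 18.8 to 823 ± 88.4, whereas Nt5e (CD73) fell from 129 ± 10.6 to 11.7 ± 5.73, by as much as Dlk1 within their errors (-3.46, SE 0.34). Nt5e met the filter only because of the Scr libraries.

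**Figure D4:**
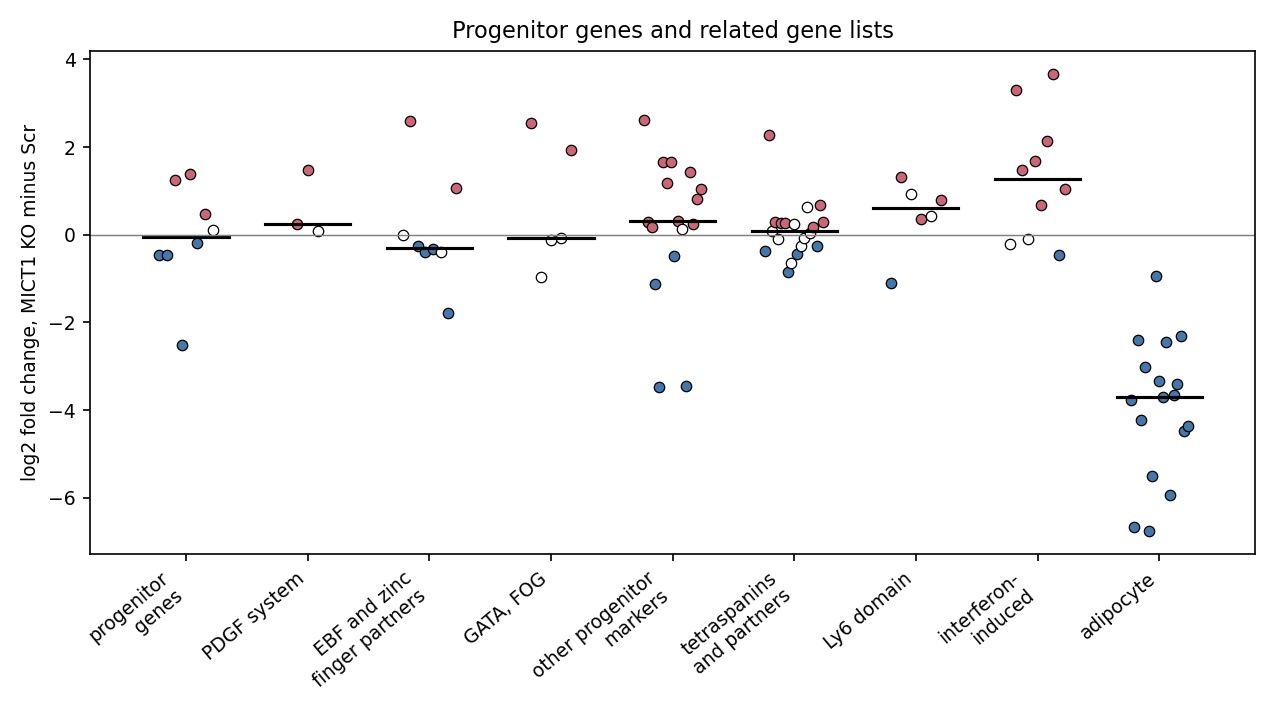
Log2 fold change of MICT1 KO against Scr cells for every tested gene of 9 sets, the progenitor genes described here first, with 1 point per gene (red higher, blue lower, white not called) and the median as a line. The 17 adipocyte markers all lie below 0, with a median of -3.70, while the progenitor genes and markers lie on both sides.

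For the 3 genes changed at least 2-fold, the genes with the most similar pattern over the 6 libraries were found by Euclidean distance on log2(value + 1), after subtracting each gene's mean over the Scr libraries. Nearest to Ly6a were Txnip, Cebpd and Fhl2, at distances of 0.114, 0.129 and 0.142. Nearest to Ebf2 were Hmmr, Samd9l and Mfap3l, at 0.224, 0.231 and 0.254. Nearest to Gata6 was Igfbp4 at 0.129, which had 3423 normalized reads in the Scr and 590 in the MICT1 KO cells on average, followed by Adhfe1 and Prxl2a at 0.257 and 0.296.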

How the data were processed

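RNA-seq of 3 Scr and 3 MICT1 KO libraries was used. Per the methods, reads were aligned with Partek to mm10; the submitters' processing notes also name STAR and DESeq2, without roles, and the counting model and annotation are not given in the sources used here. The methods name a stranded total RNA kit, whereas the labels describe library construction by a company. The authors deposited a normalized signal per gene, here read from its steps as estimated reads divided by a size factor (0.949 to 1.08). Between 88.7% and 90.2% of values under 20 were whole reads within 0.01, so no count model was run. All listed values are above 0.

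Values were tested as log2(value + 1) with limma-trend (limma 3.58.1, R 4.3.3) over the 12507 genes with at least 10 normalized reads in at least 3 libraries, with Benjamini-Hochberg adjustment over all of them; called means an adjusted p under 0.05, and fold changes are on that scale, which understates low genes. RPKM used exon lengths of GENCODE vM21, found for 12930 genes (97.3%); positions are from the same annotation on GRCm38. Of 200 genes changed at least 2-fold in simulated data, 200 (100%) were recovered among 12409 tested, with 8 false calls. That simulation changed no gene with low values. It therefore covers neither low genes, nor smaller changes such as that of Pdgfra, nor a comparison in which most genes changed. Members and gene lists were chosen with earlier results of these data known. Genes named are the members, the largest called rise and fall of a list, relatives of a member and its 3 nearest genes. Alternatives were library size or trimmed-mean scaling, pseudocounts of 0.5 and 5, no filter or a maximum of 4 CPM, limma-voom, a replicate block, the study's 1.8-fold limit and leaving out each library. Some single genes are not reported here.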

Additional observations from a re-analysis of the deposited data

How the results depend on the processing

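Pdgfrb, Ly6a, Cd9, Ebf1, Ebf2 and Gata6 kept their direction and call in all 14 settings in which they were refitted, with log2 fold changes of 0.37 to 0.56, 1.33 to 1.46, -0.54 to -0.39, -0.54 to -0.41, 1.11 to 1.33 and -2.70 to -2.40. Pdgfra was no longer called with library size scaling (-0.19, adjusted p = 0.0506, limma-trend), and it ranged from -0.30 to -0.13 when each library was left out in turn (adjusted p from 0.00149 to 0.168). Zfp423, never called, ranged from -0.097 to 0.51 in those fits, with the sign turned without Scr 2 (-0.095), KO 2 (-0.097) and KO 3 (-0.086), and it was not tested under the filter at 4 CPM. Ebf3, also not called, ranged from -0.086 to 0.044, with 4 of the 6 fits above 0 (0.0082 without Scr 1, 0.017 without Scr 3, 0.024 without KO 1 and 0.044 without KO 3). Low genes were not tested under the filter at 4 CPM. Ebf4 was also not tested without KO 1, KO 2 or KO 3. Neither Ucp1 nor Gata3 was tested in every fit that left out 1 library. Among the other genes named, Pdgfa, Cd59a, Wt1 and Igsf8 lost their call when 1 library was left out. The cause of these moves was not tested. The count of called genes fell from 7113 to 2189 at 1.8-fold and an unadjusted p under 0.05, since that adds a limit on fold. The study's minimum RPKM and gene length were not applied in this count. That minimum of 4 RPKM was not reached in any library by Ebf2, Zfp521, Notch3, Acta2, Tspan12, Icam1, Nt5e and other low genes named. Scaling moved the median of all genes by less than 0.01. With the replicate number as a block, 7055 genes were called and no member's call changed (Pdgfra -0.19, adjusted p = 0.0314; Gata6 -2.52, adjusted p = 2.08e-14). Libraries of the same number did not clearly deviate together (correlations of -0.024, -0.015 and 0.064). With 3 libraries a group this cannot exclude a shared culture or batch. Depth limits Cd34, Zfp423 and Ebf4, which had at most 28 reads in a library.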
